A study of Mus musculus with 33 samples.

Results

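Solute carriers are membrane proteins that move amino acids, sugars, ions, metals, nucleosides, vitamins and other small molecules into and out of cells and organelles. In mice their genes are named Slc, followed by the number of the family and of the member. The genes described here are all protein-coding mouse genes of that name in the RefSeq annotation whose counted regions lay inside no other gene and held at least 100 counts over all 24 RNA libraries. Of 375 Slc genes in the annotation, 186 had a usable region, and 92 passed the minimum. The members were selected on measured values, their counts summed over all libraries, with no contrast between groups, although the set was proposed with results of these data known. These 92 are called members below, and 81 of them had enough counts in single libraries to be tested.

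Total RNA was sequenced from CH12, a mouse B cell lymphoma line that switches from IgM to IgA when stimulated. The lines were wild-type (WT) CH12 cells, called parental WT here only to set them apart from a clone of WT cells (WTc), and 2 clones, KO1 and KO2, labelled as ZMYND8 knockouts. ZMYND8 is a protein that recognises marks on histones. Each of the 4 lines was kept for 48 h unactivated or activated, with 3 cultures each, which gave 24 libraries in 8 groups. All groups shared the CH12 background, each line is a single one, and the stimulus is not named in the labels. The labels call the cultures biological repeats and say no more, so p-values measure the spread between these cultures, and a line's own differences cannot be told apart from its genotype except by comparing the lines.

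Lymphocytes that are stimulated to grow are known to need more amino acids, glucose and iron, and carriers such as the CD98 heavy chain (Slc3a2), its light chain Slc7a5, the glucose carrier Slc2a1 and the lactate carrier Slc16a1 are textbook parts of that program. Other carriers sit in the mitochondrial inner membrane, the lysosome or the Golgi and set what these compartments hold. CH12 cells are a dividing lymphoma before any stimulus, so unactivated here does not mean resting.

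The deposited tables hold estimated counts for transcripts and for numbered genomic regions, and a member's value is the sum of the regions wholly inside its span, 297 regions over the 92 members. Such a value covers only a piece of the gene, may be exonic or intronic, on either strand, and is no measure of the mRNA as a whole. Levels are counts scaled for depth (CPM), where 1 CPM stands for about 32.1 counts in a library of median depth. Library depth ranged from 29.0 to 34.1 M estimated counts, with a median of 32.1 M. Most members were low, with 69 of 92 averaging under 1 CPM. In bulk RNA, fewer cells with a transcript and less of it per cell cannot be told apart. The share of counts in gene values was 1.20% in the parental WT unactivated replicate 3 and 1.14% in the WT clone unactivated replicate 2, against a median of 0.848% over the 6 unactivated WT libraries, so counts that involve them are also given without them. Regions inside Zmynd8 itself were at 1.90 ± 0.397 CPM in KO against 1.52 ± 0.262 CPM in WT lines (SD, n = 6) unactivated (log2 0.32, adjusted p = 0.334) and at 3.48 ± 0.671 against 2.43 ± 0.435 CPM activated, where they were called higher in KO lines (log2 0.52, edgeR adjusted p = 0.0417). The labels do not say where the edit lies, so this checks nothing, and the knockout status is that of the labels. Of 15 B cell markers 9 had a value, with sums of 41.7 to 69.7 CPM in unactivated WT, 64.1 to 91.2 CPM in activated WT, 65.3 to 86.7 CPM in unactivated KO and 85.3 to 112 CPM in activated KO libraries. These sums moved with activation and with genotype, and their part in the results below was not tested. Their largest part was Ebf1, at a mean of 24.7 CPM, and single markers did not all move alike. Of 8 tested B cell markers 3 rose with activation in WT lines and 1, Blk, fell (log2 -1.51, edgeR adjusted p = 2.08e-07). In KO lines 4 rose and 1 fell. Sums of the 9 measured T cell markers of 16 stayed between 1.08 and 2.42 CPM and of the 3 measured myeloid markers of 13 between 0.334 and 1.23 CPM. Of these T cell markers Bcl11b was at 0 and 4 were tested. Lck was higher in KO lines, by 1.03 unactivated and 1.33 activated (adjusted p = 0.0210 and 0.00221), Il7r was higher in activated KO lines by 1.52 (adjusted p = 0.0190), and Cd28 lower in unactivated ones at -0.93 (adjusted p = 0.0330), each at no more than about 1.02 CPM; their part in the results was not tested.

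The members belong to 38 families. By the minimum of 100 counts, Slc24a3 (100), Slc38a10 (101) and Slc14a2 (104) were just inside, and Slc2a13 (94.6), Slc16a10 (93.1) and Slc11a1 (91.3) just outside. A further 94 Slc genes had a usable region and fewer counts, and 7 of these were at 0. Because the minimum was on the sum over all libraries, a gene high in only 1 state was easier to keep than an even one of the same low level, so counts over members describe the genes kept. Slc9a3r1 carries an Slc symbol but encodes NHERF1, an adaptor that binds carriers, and is no carrier itself.

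Between genes, levels were compared per length of counted region. Slc38a2, the amino acid carrier SNAT2, was highest at 4.25 CPM per kb averaged over 24 libraries, from a single region. Slc15a3, a lysosomal peptide and histidine carrier, followed at 3.10 CPM per kb, and Slc25a16, a mitochondrial carrier, at 2.14 CPM per kb. Then came Slc7a7, the y+LAT1 light chain that exports cationic amino acids, at 1.09, Slc22a30, of the organic anion carrier family, at 0.901, Slc3a2 at 0.802, the mitochondrial aspartate and glutamate carrier Slc25a12 at 0.798 and the choline-carrier-like Slc44a2 at 0.695 CPM per kb. The ranges over libraries overlapped between neighbours in this order for each of these 8 genes. Summed over all 92 members, the level was 91.5 ± 11.5 CPM in unactivated WT, 90.8 ± 5.12 CPM in unactivated KO, 95.7 ± 6.22 CPM in activated WT and 104 ± 5.63 CPM in activated KO libraries (SD, n = 6). Slc44a2 stood out for a single library: KO1 unactivated replicate 2 was at 13.5 CPM, while the median of the 6 unactivated KO libraries was 2.27 CPM. That library raises the mean of Slc44a2 and with it its place in the order above.

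**Figure D1:**
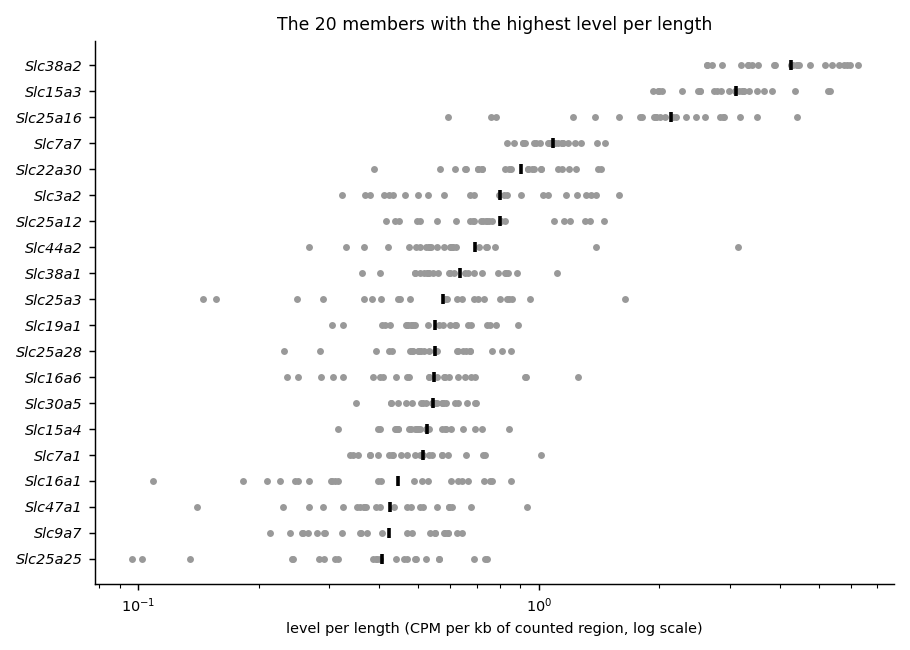
The 20 members with the highest level per length. Each grey point is 1 of 24 libraries, the black mark is their mean, and the x axis gives CPM per kb of counted region on a log scale; Slc38a2 (4.25), Slc15a3 (3.10) and Slc25a16 (2.14) lie above the rest, and the point of Slc44a2 far to the right is the KO1 library at 13.5 CPM.

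The first comparison asked which carriers differ between lines with and without ZMYND8 before activation. Few did: Slc25a12 was higher, and Slc23a2 and Slc37a2 were lower in KO lines, 3 of 81 tested members. By edgeR's quasi-likelihood test at an adjusted p under 0.05, 6.60% of the 4485 gene values tested were called, 3.46% up and 3.14% down, so the members' share was no larger than the background. The median log2 difference was -0.07 over members and -0.04 over all gene values.

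Slc25a12 (gene 78830, chromosome 2, 71274270 to 71367781, GRCm38) encodes aralar, which exchanges mitochondrial aspartate for cytosolic glutamate and feeds the malate-aspartate shuttle. Its level was 2.10, 2.78 and 3.24 CPM (lowest, median, highest of 6) in unactivated WT libraries and 4.61, 5.30 and 6.15 CPM in unactivated KO libraries. The lowest KO library lay above the highest WT library, which held for 1.87% of all gene values in that direction and for no other tested member. The log2 difference was 0.98 ± 0.16 (SE; 1.97-fold; adjusted p = 0.000187), and all 4 KO-WT line pairs were called, between 0.91 and 1.05. After activation the values came closer, at 2.34 ± 0.615 CPM in WT and 3.15 ± 0.264 CPM in KO (log2 0.43 ± 0.16, adjusted p = 0.114). Without WT activated replicate 3 that activated difference was 0.57 and was called (adjusted p = 0.0259).

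The Slc25a12 difference sat in 1 of its 3 regions. The region from 71337843 to 71340557, which starts 27198 bases downstream of the RefSeq start of this minus-strand gene, had 2.29 ± 0.600 CPM in unactivated WT and 5.01 ± 0.574 CPM in unactivated KO, a ratio of 2.19. The other two regions, from 71326919 to 71327745 and from 71353525 to 71354210, had KO to WT ratios of 0.876 and 0.554 at levels under 0.3 CPM. The measured rise is therefore one of RNA from that stretch. Whether that RNA begins at the RefSeq start was not tested. The promoter of Slc25a12 is shown from 250 bases before to 50 after the RefSeq start (chr2:71367706-71368005, minus strand, GRCm38.p6). Capitals would mark the motifs described further on, and it has none.
Slc25a12: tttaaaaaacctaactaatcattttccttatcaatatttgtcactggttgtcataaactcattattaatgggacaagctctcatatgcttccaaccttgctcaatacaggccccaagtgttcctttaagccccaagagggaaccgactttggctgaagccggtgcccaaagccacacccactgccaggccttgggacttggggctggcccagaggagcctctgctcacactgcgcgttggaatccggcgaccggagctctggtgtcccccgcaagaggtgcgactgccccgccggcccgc

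Slc23a2 (gene 54338, chromosome 2, 132052496 to 132145320) encodes SVCT2, a sodium-coupled carrier of ascorbate, which is vitamin C. Unactivated WT libraries were at 2.30, 2.49 and 2.73 CPM and unactivated KO libraries at 1.30, 1.59 and 1.87 CPM, with no overlap (1.54% of all gene values lay fully below). The log2 difference was -0.65 ± 0.13 (adjusted p = 0.00126), and all 4 line pairings were lower, from -0.70 to -0.61, of which 2 were called. Its region nearest to the start, from 132129282 to 132131875, went from 1.96 ± 0.196 CPM in WT to 1.05 ± 0.209 CPM in KO, a ratio of 0.537. The remaining regions had ratios of 0.793 to 1.20 at levels of at most 0.2 CPM.

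Slc37a2 (gene 56857, chromosome 9, 37229149 to 37255738) encodes a sugar-phosphate exchanger of the endoplasmic reticulum. Unactivated WT libraries were at 0.810, 0.964 and 1.58 CPM and KO libraries at 0.0930, 0.488 and 1.03 CPM. The groups overlapped: KO1 was at 1.03, 0.957 and 0.634 CPM, in or under the WT range, and KO2 at 0.093, 0.342 and 0.285 CPM. The log2 difference was -1.20 ± 0.30 (adjusted p = 0.0115). With KO1 alone it was -0.28 (adjusted p = 0.760), so the call rested on KO2, and it was also lost without KO2 unactivated replicate 1 (-1.01, adjusted p = 0.0529), against parental WT alone (-1.18, adjusted p = 0.0602) and with counts summed per line (-0.92, adjusted p = 0.239).

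In activated cells 1 of 81 members was called, Slc31a2, which was higher in KO. Among the gene values 8.70% were called, 6.35% up and 2.34% down. The member median was 0.12 on the log2 scale and that of all gene values 0.07. Slc31a2 (gene 20530, chromosome 4, 62280393 to 62298412) encodes CTR2, a copper carrier homolog of endosomes and lysosomes. Activated WT libraries were at 0.0912, 0.246 and 0.504 CPM and activated KO libraries at 0.489, 0.741 and 1.08 CPM. The lowest KO library lay just under the highest WT library. The log2 difference was 1.58 ± 0.30 (adjusted p = 0.000664), with all 4 line pairings higher, from 0.88 to 2.28, and 2 of them called. Against parental WT alone it was 0.90 and was not called (adjusted p = 0.167), and against the WT clone alone 2.26 (adjusted p = 0.000714). In unactivated cells the difference was 1.06 ± 0.43 (adjusted p = 0.162), at means of 0.0896 and 0.189 CPM. All 24 libraries together held 265 counts of Slc31a2.

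**Figure D2:**
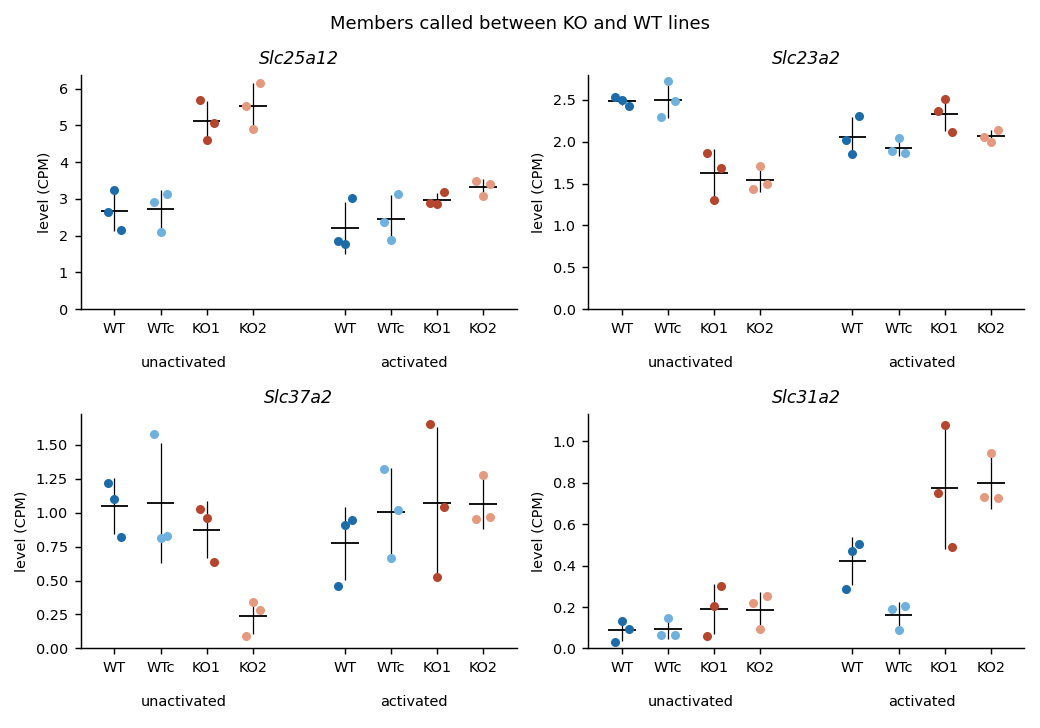
Levels of the 4 members called between KO and WT lines. Each point is 1 culture, the horizontal line the mean of 3 and the vertical line the SD, in CPM; unactivated KO1 and KO2 lie above both WT lines for Slc25a12 and below them for Slc23a2, KO2 alone is low for Slc37a2, and activated KO1 and KO2 are high for Slc31a2.

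Outside these genes, the member of each transport class with the smallest p was not called. Among ion carriers it was Slc12a2, the NKCC1 sodium, potassium and chloride cotransporter, with 0.51 ± 0.24 unactivated (adjusted p = 0.252) and 0.75 ± 0.25 activated (adjusted p = 0.0608). It passed in a fit of only the activated libraries (0.75, adjusted p = 0.0336) and without WT activated replicate 3 (0.93, adjusted p = 0.0270). Among amino acid carriers it was Slc36a3 unactivated, at -0.80 ± 0.31 (adjusted p = 0.135), and Slc7a7 activated, at 0.28 ± 0.12 (adjusted p = 0.191). Slc7a7 was the member with no overlap in activated cells, at 6.54 to 7.62 CPM in WT and 7.89 to 9.69 CPM in KO; 3.75% of all gene values lay fully above in that comparison. The sugar and carboxylate carriers gave Slc16a6, of the monocarboxylate family, at 0.54 ± 0.28 unactivated (adjusted p = 0.318) and the glucose carrier Slc2a1 at 0.61 ± 0.29 activated (adjusted p = 0.258). For organic ions these were Slc47a2, a multidrug extrusion carrier, at -0.58 ± 0.27 unactivated (adjusted p = 0.247), and Slc22a30 at -0.37 ± 0.23 activated (adjusted p = 0.447). Slc49a4 was at -0.63 ± 0.25 and -0.48 ± 0.24 (adjusted p = 0.138 and 0.293), and Slc9a3r1 at 0.65 ± 0.40 and 0.17 ± 0.33 (adjusted p = 0.415 and 0.868). In activated cells the nucleoside carrier Slc29a3 was at 0.29 ± 0.15 (adjusted p = 0.314) and Slc37a2 at 0.28 ± 0.26 (adjusted p = 0.671).

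Activation moved more members than genotype did. In WT lines 13 of 81 rose and 6 fell, and in KO lines 22 rose and 7 fell. Of all gene values 21.9% were called in WT lines (16.5% rose, 5.44% fell) and 28.3% in KO lines (24.1% rose, 4.21% fell), so the members' shares of 16.0% and 27.2% higher were near the background. The members' lower shares were 7.41% in WT and 8.64% in KO lines, the latter 7 genes and above its background; whether these shares differ was not tested. The median of all gene values itself shifted by 0.18 in WT and 0.28 in KO lines, against 0.06 and 0.27 over members. When libraries were scaled on gene values, which takes that shift to -0.02 and -0.03, the split changed to 9 higher and 13 lower members in WT lines and 9 higher and 11 lower in KO lines. All 48 called responses kept their direction under that scaling, but 17 were no longer called, every one of them a rise. Without the 2 high-share unactivated WT libraries the WT count was 16 higher and 4 lower. Groups without overlap were found for 5 members higher and 4 lower in WT lines (7.69% and 2.23% of all gene values) and for 12 higher and 4 lower in KO lines (13.7% and 2.27%).

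The members that fell in both genotypes were Slc3a2, Slc16a1, Slc7a1, Slc38a1 and Slc4a8, the last a sodium-driven chloride and bicarbonate exchanger. Members are grouped by family, and of the 15 tested in families of amino acid carriers 3 fell in WT lines and the same 3 in KO lines. In these families 2 rose in WT lines and 5 in KO lines. Over all gene values 5.44% fell and 16.5% rose in WT lines, and 4.21% fell and 24.1% rose in KO lines. Whether this class differs from these shares was not tested.

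Slc3a2 (gene 17254, chromosome 19, 8706882 to 8723369) encodes the CD98 heavy chain, which brings light chains such as Slc7a5 to the cell surface. WT libraries were at 1.84, 2.78 and 3.12 CPM unactivated and 0.726, 0.946 and 1.51 CPM activated. KO libraries were at 1.78, 2.33 and 3.55 CPM unactivated and 0.825, 1.15 and 1.55 CPM activated. The states did not overlap in either genotype. The fall was -1.37 ± 0.20 in WT (2.58-fold, adjusted p = 6.22e-06) and -1.09 ± 0.19 in KO lines (2.13-fold, adjusted p = 8.53e-05), and each of the 4 lines alone was called. It lay in the region from 8711712 to 8712569, which starts 1328 bases downstream of the RefSeq start and went from 2.31 ± 0.523 to 0.758 ± 0.290 CPM in WT lines, a ratio of 0.328. The region from 8718173 to 8719557, upstream of that start but inside the annotated span, had 0.265 ± 0.0740 and 0.245 ± 0.0818 CPM. Its partner Slc7a5 was low, at 0.484 ± 0.213 and 0.271 ± 0.0513 CPM in WT lines, with a log2 difference of -0.77 ± 0.29 (adjusted p = 0.0596) in WT and -0.21 ± 0.30 (adjusted p = 0.645) in KO lines.

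Slc16a1 (gene 20501, chromosome 3, 104638664 to 104658462) encodes MCT1, a carrier of lactate and pyruvate. WT libraries were at 0.526, 1.10 and 1.48 CPM unactivated and 0.189, 0.492 and 0.890 CPM activated, and KO libraries at 0.530, 1.10 and 1.33 CPM and 0.318, 0.446 and 0.850 CPM. The states overlapped in both genotypes. The log2 difference was -1.08 ± 0.27 in WT (adjusted p = 0.00381) and -1.09 ± 0.27 in KO lines (adjusted p = 0.00271). By line it was -0.35 in parental WT (adjusted p = 0.638), -1.81 in the WT clone (adjusted p = 0.00218), -1.31 in KO1 (adjusted p = 0.0192) and -0.86 in KO2 (adjusted p = 0.123), so the WT call rested on the clone.

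Slc7a1, the cationic amino acid carrier CAT1, was at 4.96, 5.56 and 9.96 CPM unactivated and 3.31, 3.81 and 4.61 CPM activated in WT lines. Its log2 difference was -0.72 ± 0.16 in WT (adjusted p = 0.00165) and -0.46 ± 0.16 in KO lines (adjusted p = 0.0354); the KO call was lost with KO1 alone (-0.33), with KO2 alone (-0.59), without a low-count filter and when any of 7 KO libraries was left out, within a range of -0.77 to -0.33 over all alternatives. Slc38a1, the glutamine carrier SNAT1, went from 4.86, 5.73 and 8.22 CPM to 2.98, 3.98 and 4.46 CPM in WT lines, with no overlap. Its fall was -0.63 ± 0.14 in WT (adjusted p = 0.00126) and -0.56 ± 0.14 in KO lines (adjusted p = 0.00334), the latter lost with KO1 alone (-0.43, adjusted p = 0.158). Its relative Slc38a2 moved the other way, as described next. Slc4a8 fell by -1.16 ± 0.38 in WT (adjusted p = 0.0277) and -1.67 ± 0.40 in KO lines (adjusted p = 0.00242), at levels of at most 0.559 CPM. Its WT call was lost in each WT line alone, without the 2 high-share libraries and without any of 6 libraries, at -1.37 to -1.01 over all alternatives. The KO call of Slc4a8 was lost with KO1 alone (-1.43, adjusted p = 0.0861). The glucose carrier Slc2a1 was called lower in WT lines (-0.90 ± 0.29, adjusted p = 0.0243). Parental WT unactivated replicate 3 was at 1.51 CPM against a range of 0.362 to 0.890 CPM in the other unactivated WT libraries. Without that library the difference was -0.46 (adjusted p = 0.177), without both high-share libraries -0.49 (adjusted p = 0.156), and neither WT line alone was called. The call was also lost with only the libraries compared. Leaving out parental WT activated replicate 1, WT clone unactivated replicate 3 or WT clone activated replicate 1 lost it too. Slc2a1 was at -0.52 ± 0.27 in KO lines (adjusted p = 0.152); the difference between the genotypes was 0.38 ± 0.39 (adjusted p = 0.813).

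Of the members that rose, 12 were called in both genotypes. They included a lysosomal nucleoside carrier, proton and calcium exchangers and SNAT2. Slc29a3 (gene 71279, chromosome 10, 60712072 to 60752849), which encodes the lysosomal nucleoside carrier ENT3, had the smallest p of all members in both genotypes. WT libraries were at 0.922, 1.56 and 1.66 CPM unactivated and 3.38, 4.39 and 5.45 CPM activated. KO libraries were at 1.40, 1.71 and 1.93 CPM and 4.31, 5.29 and 6.51 CPM. The states were far apart in each line, with differences of 1.52, 1.77, 1.78 and 1.57 in parental WT, the WT clone, KO1 and KO2. Over the lines the log2 difference was 1.64 ± 0.17 in WT (3.13-fold, adjusted p = 2.80e-08) and 1.67 ± 0.16 in KO lines (3.19-fold, adjusted p = 1.21e-08). Both of its regions rose, by ratios of 3.25 and 3.14 in WT lines and 4.31 and 3.08 in KO lines.

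Among the ion carriers, 4 of 15 tested members rose and 1 fell, and these were the same genes in both genotypes. For all gene values the shares were 16.5% risen and 5.44% fallen in WT, and 24.1% and 4.21% in KO lines. The ion class was not tested against them. Slc9a7 (gene 236727, chromosome X, 20098851 to 20292035), the Golgi sodium and proton exchanger NHE7, went from 3.69, 4.63 and 5.72 CPM to 6.25, 8.70 and 9.10 CPM in WT and from 3.28, 4.22 and 5.52 CPM to 7.40, 8.80 and 9.90 CPM in KO lines. No state overlapped the other. The rise was 0.79 ± 0.14 in WT (adjusted p = 9.17e-05) and 1.04 ± 0.14 in KO lines (adjusted p = 1.84e-06). Slc24a1, a sodium and calcium exchanger, rose by 1.60 ± 0.31 in WT (adjusted p = 0.000304) and by 1.75 ± 0.32 in KO lines (adjusted p = 0.000149), from under 0.5 CPM; in parental WT alone it was 1.25 (adjusted p = 0.0562). Slc12a8, a relative of the cation and chloride cotransporters, rose by 1.06 ± 0.16 in KO lines (adjusted p = 1.21e-05); its WT value of 0.47 ± 0.16 (adjusted p = 0.0383) was lost in 8 other settings, among them DESeq2 and each WT line alone, and without any of 8 libraries, at 0.26 to 0.68.

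Among amino acid carriers, Slc38a2 went from 1.62, 2.07 and 2.63 CPM to 2.71, 3.44 and 3.86 CPM in WT lines and from 1.62, 2.01 and 2.39 CPM to 2.66, 3.06 and 3.68 CPM in KO lines. The states did not overlap, and each of the 4 lines alone was called, from 0.59 to 0.72. The log2 difference was 0.68 ± 0.14 in WT (adjusted p = 0.000574) and 0.62 ± 0.14 in KO lines (adjusted p = 0.00118), the latter lost when scaled on gene values (0.32, adjusted p = 0.141). Slc1a2, the glutamate carrier EAAT2, rose by 0.87 ± 0.25 in WT (adjusted p = 0.0128) and 0.96 ± 0.26 in KO lines (adjusted p = 0.00731), at levels under 0.7 CPM. Both calls were lost when scaled on gene values (0.67 and 0.65), with counts summed per line and in each line alone, and the WT call also with DESeq2 and without WT activated replicate 3.

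In KO lines 3 more members of these families rose, Slc43a2, Slc43a3 and Slc36a3. Slc43a3 belongs to an amino acid carrier family by sequence but encodes a purine nucleobase carrier, so 4 of the 5 that rose in KO lines are left without it. Slc43a2, the branched-chain amino acid carrier LAT4, went from 0.127, 0.354 and 0.478 CPM to 0.573, 1.06 and 1.40 CPM (1.68 ± 0.54, adjusted p = 0.0219). In WT lines its values were scattered, with 1.92 CPM in the WT clone unactivated replicate 2 and 3.45 CPM in parental WT activated replicate 2 against medians of 0.282 and 0.880 CPM, and the difference was 0.76 ± 0.50 (adjusted p = 0.307). Slc43a3 was at 0.76 ± 0.22 (adjusted p = 0.00955) and Slc36a3 at 0.99 ± 0.30 (adjusted p = 0.0140) in KO lines, and at 0.52 ± 0.21 (adjusted p = 0.0862) and 0.37 ± 0.27 (adjusted p = 0.371) in WT lines. The calls of Slc43a2, Slc43a3 and Slc36a3 were lost when scaled on gene values (1.37, 0.46 and 0.69), and that of Slc36a3 also with KO1 alone (0.63), DESeq2, counts summed per line, no low-count filter or without KO1 activated replicate 3. That of Slc43a2 was also lost without KO1 unactivated replicate 1 (1.52), KO2 unactivated replicate 3 (1.48) or KO2 activated replicate 1 (1.53). It was called neither with KO1 alone (1.78) nor with KO2 alone (1.57), and the call of Slc43a3 was lost with KO1 alone (0.54).

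**Figure D3:**
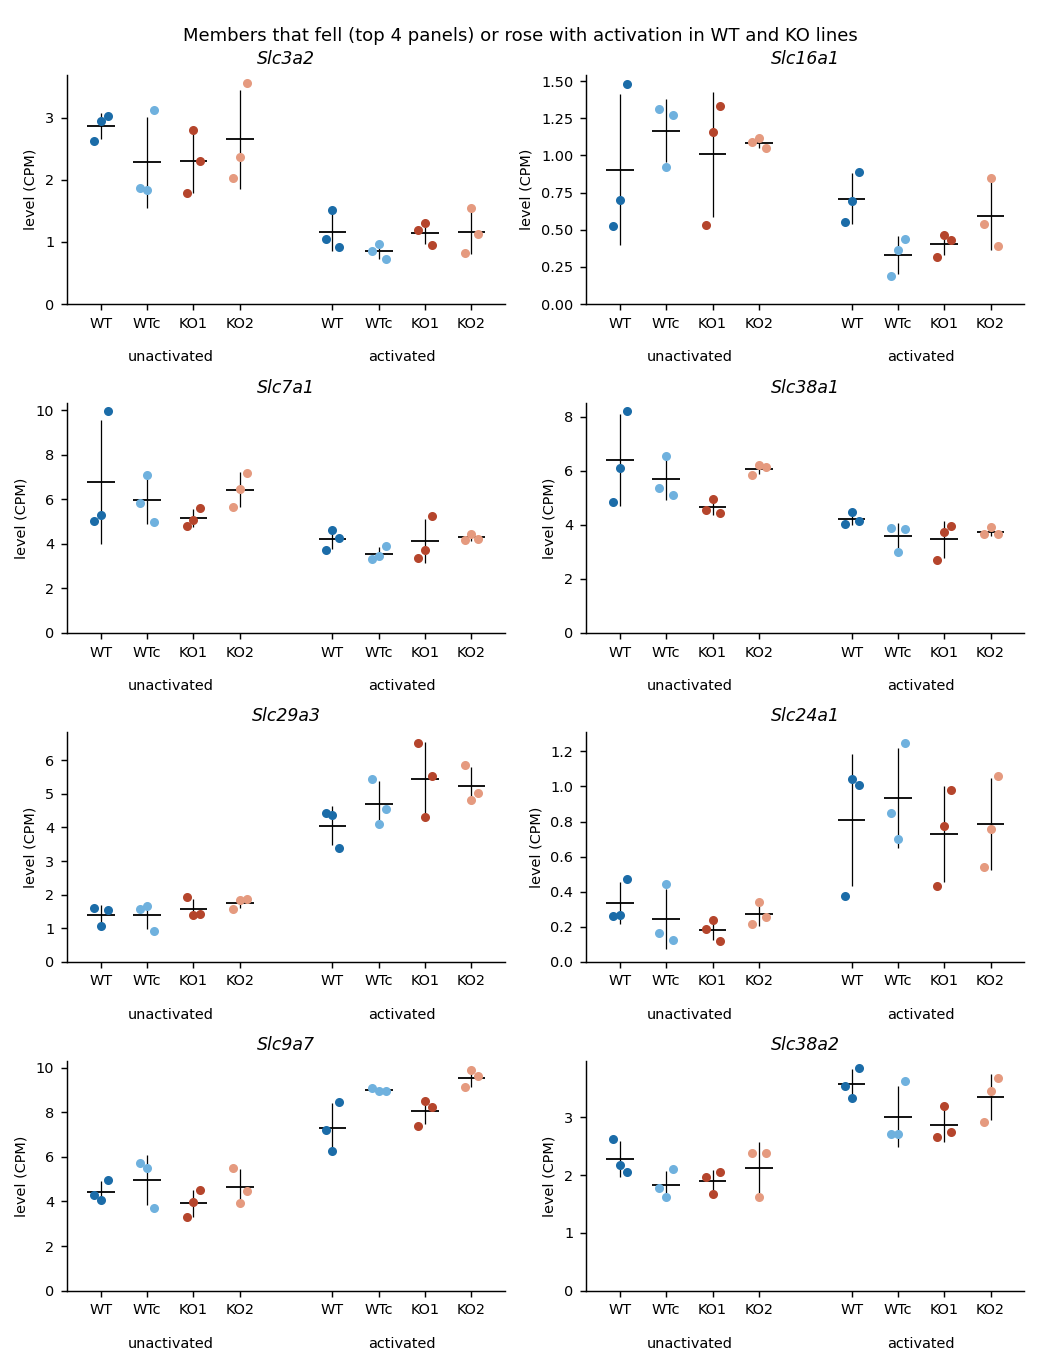
Levels of 8 members that fell (Slc3a2, Slc16a1, Slc7a1, Slc38a1) or rose (Slc29a3, Slc24a1, Slc9a7, Slc38a2) with activation in WT and KO lines. Each point is 1 culture, the horizontal line the mean of 3 and the vertical line the SD, in CPM; the rise of Slc29a3 from 0.922 to 1.93 CPM up to 3.38 to 6.51 CPM is seen in all 4 lines, while Slc16a1 overlaps between states, as does Slc24a1 in the parental WT.

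Metal, mitochondrial and lysosomal carriers also had members that moved. Slc31a2 rose by 1.52 ± 0.42 in WT (adjusted p = 0.00894) and by 2.03 ± 0.31 in KO lines (adjusted p = 1.29e-05); in the WT clone alone it was 0.81 (adjusted p = 0.467). Its paralog Slc31a1, the main copper importer CTR1, was at -0.18 ± 0.39 and 0.18 ± 0.39 (adjusted p = 0.793 and 0.775). The zinc importer Slc39a10 rose in KO lines by 0.79 ± 0.24 (adjusted p = 0.0131) and was at 0.61 ± 0.24 in WT lines (adjusted p = 0.0723); the KO call was lost when scaled on gene values (0.48, adjusted p = 0.108), with KO2 alone (0.58, adjusted p = 0.268) and without KO1 activated replicate 3 (0.63). Slc25a12 fell in KO lines, from 5.32 ± 0.566 to 3.15 ± 0.264 CPM (-0.76 ± 0.16, adjusted p = 0.000565), and was at -0.21 ± 0.16 in WT lines (adjusted p = 0.407). The mitochondrial carrier Slc25a43 rose in KO lines by 0.60 ± 0.19 (adjusted p = 0.0209), a call lost in 5 other settings and without KO1 unactivated replicate 2 (0.56), KO2 unactivated replicate 2 (0.54) or KO2 activated replicate 3 (0.47), and was at 0.52 ± 0.20 in WT lines (adjusted p = 0.0671). Of the 2 lysosomal peptide and histidine carriers, Slc15a3 rose by 0.55 ± 0.20 (adjusted p = 0.0422) and Slc15a4 fell by -0.48 ± 0.15 (adjusted p = 0.0200) in KO lines; the first call was lost in 6 other settings and without any of 8 libraries, at 0.25 to 0.76 over all alternatives. The second was lost without a low-count filter, with KO2 alone (-0.18) and without KO1 unactivated replicate 3 (-0.42), KO1 activated replicate 1 (-0.40), KO2 unactivated replicate 3 (-0.41) or KO2 activated replicate 1 (-0.44). In WT lines they were at 0.22 ± 0.20 and -0.14 ± 0.15 (adjusted p = 0.479 and 0.573). Slc10a7, a relative of the bile acid carriers, rose by 0.66 ± 0.23 in WT (adjusted p = 0.0386) and 0.81 ± 0.23 in KO lines (adjusted p = 0.0101); the parental WT unactivated replicate 3 and the WT clone unactivated replicate 2 were at 3.12 and 4.13 CPM against a median of 1.71 CPM, and both calls were lost when scaled on gene values (0.50 each). The WT call was also lost in each WT line alone, with only the libraries compared and without any of 7 libraries, at 0.49 to 1.21 over all alternatives. The KO call was also lost with KO2 alone (0.64). Slc37a2 rose in KO lines by 1.22 ± 0.29 (adjusted p = 0.00248), which was 2.13 in KO2 and 0.30 in KO1, as KO2 started low.

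Further calls came at low levels. Slc45a4 rose by 1.55 ± 0.30 in WT (adjusted p = 0.000270) and 1.52 ± 0.27 in KO lines (adjusted p = 8.94e-05), and the sugar carrier family member Slc5a10 by 1.02 ± 0.28 (adjusted p = 0.00866) and 0.93 ± 0.29 (adjusted p = 0.0187). By line the Slc5a10 rise was called in the WT clone (1.51) and KO1 (1.42) and not in parental WT (0.53) or KO2 (0.44), and its KO call was also lost when scaled on gene values (0.62) and without any of 3 libraries. The extrusion carrier Slc47a2 rose by 0.79 ± 0.24 (adjusted p = 0.0151) and 1.20 ± 0.25 (adjusted p = 0.000683). Its WT call was lost when scaled on gene values (0.60), with counts summed per line, in each WT line alone and without either of 2 libraries. The KO call of Slc47a2 was lost with KO2 alone (0.94, adjusted p = 0.0564). Slc47a1 and the nucleoside carrier Slc28a1 rose in KO lines, by 1.05 ± 0.38 (adjusted p = 0.0409) and 0.77 ± 0.25 (adjusted p = 0.0249). Slc47a1 was at 0.42 in KO1 (adjusted p = 0.647) and 1.67 in KO2 (adjusted p = 0.0415), so its call rested on KO2, and it was lost without any of 8 libraries. The call of Slc28a1 was lost in each KO line alone, in 4 other settings and without any of 6 libraries, at 0.47 to 0.90 over all alternatives. Slc66a2 rose in WT lines by 1.05 ± 0.31 (adjusted p = 0.0140; not called in either WT line alone or without WT activated replicate 2) and was at 0.23 ± 0.29 in KO lines (adjusted p = 0.606). None of these averaged 1 CPM in a group, so they stand outside the rule for named genes and are listed because each was called.

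The WT and KO responses shared no libraries. Of the 19 members called in WT lines 17 were also called in KO lines in the same direction, 12 higher and 5 lower, which is 89.5% of the WT list and 58.6% of the 29 in the KO list. Of all 81 tested members 65 had the same sign in both, and Pearson's r across members was 0.85, a description over genes that share libraries and depth within each genotype. The same figures were not computed over all gene values. Of those, 65.1% had a positive log2 change with activation in WT lines and 72.3% in KO lines. Agreement between the genotypes is therefore not shown to be particular to the members.

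**Figure D4:**
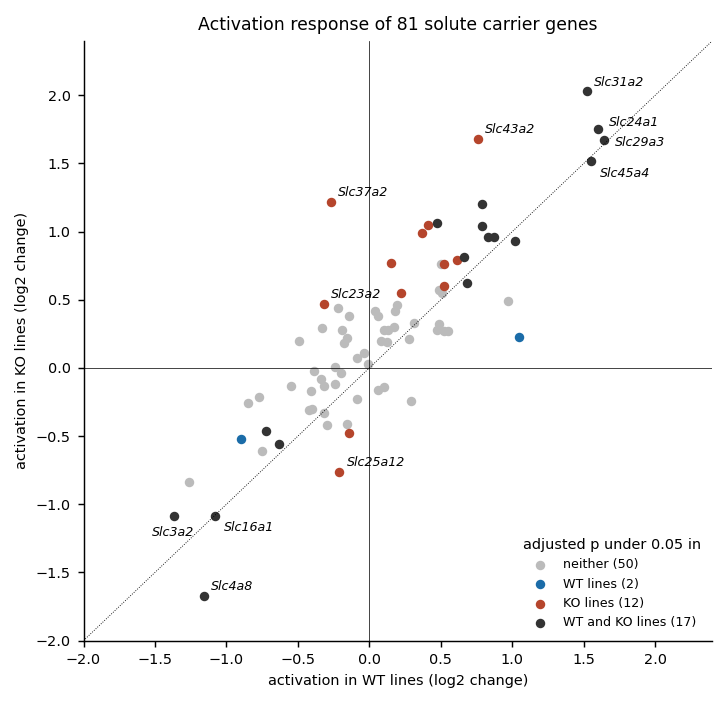
Activation response of the 81 tested members, as the log2 change in WT lines (x axis) against that in KO lines (y axis). Each point is 1 gene, coloured by where its adjusted p was under 0.05, and the dotted line marks equal change; 17 members were called in both, 2 in WT lines and 12 in KO lines, and Slc37a2, Slc23a2 and Slc25a12 lie off the line.

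Whether the response itself differed between genotypes was tested as an interaction. One member of 81 was called, Slc23a2, against 0.557% of all gene values, 0.424% higher and 0.134% lower. It went from 2.49 ± 0.140 to 2.00 ± 0.176 CPM in WT lines (-0.32 ± 0.12, adjusted p = 0.0640) and from 1.58 ± 0.213 to 2.20 ± 0.197 CPM in KO lines (0.47 ± 0.13, adjusted p = 0.00581), the latter 0.16 and not called when scaled on gene values (adjusted p = 0.451). The KO call was also lost without a low-count filter, with counts summed per line and with KO2 alone (0.42). The regions differed: the one nearest to the start went from 1.96 ± 0.196 to 1.17 ± 0.157 CPM in WT lines, a ratio of 0.600, and from 1.05 ± 0.209 to 1.03 ± 0.219 CPM in KO lines, a ratio of 0.979. The 3 regions farthest from the start rose in mean in both genotypes, by ratios of 1.30 to 2.00 in WT and 1.56 to 2.85 in KO lines, at levels of at most 0.434 CPM, and the remaining one was under 0.04 CPM. No region therefore fell in WT and rose in KO lines. The difference of the responses was 0.79 ± 0.18 (adjusted p = 0.0289), and between the activated groups the KO minus WT value was 0.14 ± 0.12 (adjusted p = 0.647). Under 8 of 11 other settings it lost the call, at values between 0.70 and 0.85, and it lost it when any of 13 libraries was left out. Slc37a2 had the next smallest p (1.49 ± 0.40, adjusted p = 0.0820), then Slc12a8 (0.60 ± 0.23, adjusted p = 0.318) and Slc25a12 (-0.55 ± 0.23, adjusted p = 0.364).

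Lines of one genotype were compared to see how far single lines differ, each line as its mean over both states. A difference in only 1 state is diluted in that mean and was not tested by itself. Unactivated Slc37a2 lay apart in this way, at 1.03, 0.957 and 0.634 CPM in KO1 and 0.0930, 0.342 and 0.285 CPM in KO2. So did activated Slc31a2, at 0.289, 0.471 and 0.504 CPM in parental WT and 0.189, 0.0912 and 0.203 CPM in the WT clone. Between the WT clone and parental WT no member was called by edgeR or by DESeq2, with 5 of 81 at an unadjusted p under 0.05, and 0.223% of all gene values passed, 0.0446% up and 0.178% down. Between KO2 and KO1 none was called by either tool, with 3 at an unadjusted p under 0.05, while among the gene values 0.424% passed, 0.223% up and 0.201% down.

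To show the sequence where the members that moved together start, promoters of Slc3a2 and Slc16a1, which fell, and of Slc29a3 and Slc31a2, which rose in both genotypes, are given from RefSeq (GRCm38.p6). Each runs 5′ to 3′ from 250 bases before to 50 after the start, and capitals mark the E-box CACGTG, the palindromic site read by factors such as MYC and USF.
Slc3a2 (chr19:8713848-8714147, minus strand): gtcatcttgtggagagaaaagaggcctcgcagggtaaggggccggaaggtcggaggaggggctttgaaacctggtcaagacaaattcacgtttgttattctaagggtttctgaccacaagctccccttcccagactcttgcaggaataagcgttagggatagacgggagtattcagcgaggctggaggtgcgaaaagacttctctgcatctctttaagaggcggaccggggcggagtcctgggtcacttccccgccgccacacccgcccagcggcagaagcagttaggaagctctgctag
Slc16a1 (chr3:104638414-104638713, plus strand): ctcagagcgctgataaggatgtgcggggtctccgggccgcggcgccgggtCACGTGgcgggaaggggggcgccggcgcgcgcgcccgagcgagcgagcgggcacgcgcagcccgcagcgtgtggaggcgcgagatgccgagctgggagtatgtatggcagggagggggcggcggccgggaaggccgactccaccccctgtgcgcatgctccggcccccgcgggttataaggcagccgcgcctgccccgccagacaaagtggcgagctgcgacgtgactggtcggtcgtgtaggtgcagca
Slc29a3 (chr10:60752733-60753032, minus strand): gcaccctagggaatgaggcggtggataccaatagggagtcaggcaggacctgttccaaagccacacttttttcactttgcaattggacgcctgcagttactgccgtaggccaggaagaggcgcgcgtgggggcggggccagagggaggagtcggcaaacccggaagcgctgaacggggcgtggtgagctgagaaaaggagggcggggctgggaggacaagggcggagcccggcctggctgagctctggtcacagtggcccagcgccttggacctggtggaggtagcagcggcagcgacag
Slc31a2 (chr4:62286179-62286478, plus strand): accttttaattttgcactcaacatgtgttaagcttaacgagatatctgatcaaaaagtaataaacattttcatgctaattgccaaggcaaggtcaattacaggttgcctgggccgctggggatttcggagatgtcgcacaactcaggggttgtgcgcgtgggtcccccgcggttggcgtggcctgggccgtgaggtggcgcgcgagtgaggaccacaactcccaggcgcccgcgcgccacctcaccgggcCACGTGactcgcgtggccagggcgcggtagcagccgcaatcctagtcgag

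RefSeq promoters were found for 69 of the 92 members, 90 windows in all. The E-box was in 13 of the 90 windows (14.4%) and in 7.15% of all 32851 promoter windows, searched on both strands. Whether these shares differ was not tested, and the windows were not matched for base content or level of the gene. Among members that fell in both genotypes the E-box was in 1 of 5 windows, that of Slc16a1, and among those that rose in 1 of 13, that of Slc31a2. The composite element TGATGNAA, which ATF4 dimers read in genes of the amino acid response, was in 4 member windows (4.44%) and in 3.97% of all windows, and in none of the windows of members called in both genotypes or between KO and WT. The windows end 50 bases after the start, so elements farther into a gene were not searched. Sets of 5 or 13 windows are also too small to read an absence against a share of 3.97%. The regions of Slc31a2 lay on either side of its RefSeq start. The one from 62282347 to 62283832 ends 2597 bases upstream of it and inside the annotated span, and it carried most counts, at 0.639 ± 0.143 CPM in activated KO and 0.185 ± 0.0715 CPM in activated WT libraries, a ratio of 3.45. The one from 62297748 to 62298137 was at 0.145 ± 0.229 and 0.107 ± 0.171 CPM, a ratio of 1.36. Those of Slc16a1 started 2116 and 4930 bases downstream of its start; the nearer went from 0.900 ± 0.315 to 0.330 ± 0.129 CPM with activation in WT lines, and the farther from 0.135 ± 0.161 to 0.191 ± 0.125 CPM.

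Genes that work with carriers were looked at as lists. As background, 16.5% of all gene values rose and 5.44% fell with activation in WT lines, and 24.1% rose and 4.21% fell in KO lines. Between KO and WT lines 6.60% were called unactivated and 8.70% activated. No list was tested against these shares, and 3 to 10 tested genes per list are too few to compare with them. Of 14 partners and chaperones 4 were tested. Tusc3, an oligosaccharyltransferase subunit also linked to magnesium uptake, was higher in unactivated KO lines, 3.38 ± 0.556 against 0.988 ± 0.190 CPM (1.77 ± 0.18, adjusted p = 2.86e-07). In activated cells it was at 1.35 ± 0.340 and 1.00 ± 0.239 CPM. Cd44 rose with activation by 1.11 ± 0.17 in WT (adjusted p = 2.14e-05) and 1.06 ± 0.17 in KO lines (adjusted p = 3.35e-05). Of 10 tested carriers without an Slc symbol, Svop was higher in unactivated KO lines (0.61 ± 0.17, adjusted p = 0.0312) and Mfsd2a, a lysolipid carrier, in activated ones (0.81 ± 0.26, adjusted p = 0.0459). With activation in WT lines Unc93b1 and Sfxn5 rose and Mfsd2a was 1 of 2 that fell, and in KO lines only Sfxn5 was called (0.70 ± 0.21, adjusted p = 0.0126). Of 10 tested genes of amino acid sensing and mTORC1, Fnip1 and Depdc5 rose in WT lines (0.48 ± 0.17 and 0.68 ± 0.24, adjusted p = 0.0472 and 0.0476). In KO lines Tfeb, which drives lysosomal genes, rose by 1.14 ± 0.24 (adjusted p = 0.000550), Wdr59 by 1.02 ± 0.28 (adjusted p = 0.00759), and Rictor fell by -0.92 ± 0.21 (adjusted p = 0.00150). Of 3 tested ATF4 response genes Shmt2 fell in WT lines (-0.61 ± 0.18, adjusted p = 0.0124). Of 8 tested glycolysis genes Pkm fell in WT lines (-0.75 ± 0.19, adjusted p = 0.00501), Hk1 and Hif1a rose in KO lines (0.74 ± 0.19 and 0.60 ± 0.21, adjusted p = 0.00475 and 0.0333), and Pfkp was higher in activated KO than WT lines (0.98 ± 0.29, adjusted p = 0.0295).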

How the data were processed

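Per the labels' protocols, libraries were single-end and stranded, from total RNA without ribosomal RNA. Kallisto 0.43.0, DESeq2 and GRCm38.p5 are named in the submitters' processing notes. The authors deposited estimated counts (expected counts, not normalized) and TPM values for 171152 targets per library; the deposited TPM values were not used. Kallisto shares reads between similar targets, and a region over an exon can lose reads to a transcript. Another 9 samples (8 ChIP-seq, 1 GRO-seq) were not analysed here.

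A gene value is the summed count of the regions wholly inside exactly 1 RefSeq gene of GRCm38.p6, which shares its primary coordinates with p5; 12 annotation entries that span whole loci were left out. Sums were rounded and scaled by TMM from 61074 targets with total counts as library size. Gene values were kept by filterByExpr by group (4485 of 10750) and fitted in 1 edgeR 4.0.16 quasi-likelihood model (limma 3.58.1, R 4.3.3) with 8 group means; Benjamini-Hochberg adjustment was over all 4485, and a call is an adjusted p under 0.05. Scripts were checked on simulated data. Replicates differed by more than sampling noise (chi-square per degree of freedom 2.03 to 13.6). Regions are counted from 1.

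The members, classes and lists were chosen with earlier results of these data known. Members are named if called with at least 1 CPM in a compared group and equal sign in each line or pairing (up to 12 each way), or among the 8 highest per kb, or with the smallest p of their class in a KO comparison; up to 3 called genes are named per list. A member that this rule names is not reported here. Slc31a2 in activated cells, Slc2a1, Slc7a5, Slc31a1, Slc4a8, Slc24a1, Slc1a2, Slc43a3, Slc36a3 and Slc44a2 are described further after their values were seen. Alternatives were DESeq2 1.42.0, RLE scaling, a replicate block, no low-count filter, counts summed per line, only the libraries compared, single lines, each library left out, and, added after seeing the data, scaling on gene values and leaving out the 2 high-share libraries.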

Additional observations from a re-analysis of the deposited data

Results flagged for a closer look

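The activation response of Slc23a2, the ascorbate carrier SVCT2, differed between KO and WT lines by a log2 value of 0.79 in the interaction test (edgeR, adjusted p = 0.0289). It is given here because that test passed; the response was -0.32 in WT lines, which was not called (adjusted p = 0.0640), and 0.47 in KO lines. By line the values were -0.27 (parental WT), -0.37 (WT clone), 0.52 (KO1) and 0.42 (KO2). The lower WT value came from the region nearest to the start (ratio 0.600 in WT, 0.979 in KO lines) and the higher KO value from regions that were also higher in mean in WT lines. The call was lost without the 2 high-share unactivated WT libraries (0.77, adjusted p = 0.0615).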

How the results depend on the processing

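Of 69 single-gene results, 53 of them called, 1528 values under alternatives were computed: 1329 kept direction and side of the threshold, 193 kept direction but lost the call, 4 gained it and 2 reversed. The reversals were uncalled: Slc16a6 in unactivated KO against the WT clone alone (-0.06) and Slc22a30 in activated KO with KO2 alone (0.04). Counts of called members moved as follows. In activated KO against WT (1) there were 2 with a replicate block, 2 with only the libraries compared, 0 against parental WT alone, 2 against the WT clone alone, and 1 to 3 when single libraries were left out, the 3 without WT activated replicate 3 (Slc31a2, Slc12a2 and Slc25a12). Activation in WT lines (19) gave 9 with parental WT alone and 11 with the WT clone alone, and 16 to 21 with single libraries left out; in KO lines (29) it gave 17 with KO1 alone, 16 with KO2 alone and 24 to 28. Fewer libraries entered these single-line tests, and the cause of these and of the other changes was not tested. The interaction (1) gave 2 with DESeq2 (Slc23a2 and Slc37a2), 0 when scaled on gene values, with counts summed per line, with KO1 alone, against parental WT alone, against the WT clone alone and without the 2 high-share libraries, and 0 to 1 with single libraries left out. For the WT clone against parental WT (0) the range was 0 to 1, the 1 without WTc unactivated replicate 1. Unactivated KO against WT (3) ranged from 2 to 4. The calls of Slc25a12 and Slc23a2 in unactivated cells and of Slc29a3, Slc3a2, Slc9a7 and Slc45a4 with activation were kept in every alternative run.

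Replicate numbers are shared between groups, but 23 of 84 same-number pairs of libraries had a correlation of deviations over 0.1 (lowest -0.274), so the cultures were not treated as paired. Some pairing is possible, since 18 of 24 libraries correlated best with their own number among the 3 replicate numbers. The median correlation was 0.0668 for equal and -0.0327 for other numbers. The replicate block gave 3 called members in unactivated and 2 in activated KO against WT, the second being Slc12a2 (0.77, adjusted p = 0.0370). With activation it gave 20 called members in WT and 30 in KO lines, against 19 and 29 in the main fit. The planned fit on regions that overlap no exon was not run, as no exon annotation was used here. Members near the minimum of 100 counts over 24 libraries have few counts in each, so small changes in them were not detectable at this depth.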
